A study of Rattus norvegicus with 12 samples.

Results

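The genes described here are 40 listed genes of the interferon response and of antigen presentation, measured in N27 cells. A gene was taken as measured when a non-control probe on the arrays carried its symbol or an older symbol of the same gene. By that rule 39 of the 40 had a probe, out of 36181 genes and transcripts on the array, and 37 were bright enough to be tested, out of 13542. The fipronil group comprised 6 samples kept in 25 µM fipronil for 24 h and the control group 6 samples left untreated, and Cy3-labelled total RNA of each was hybridised to a one-colour rat array. Fipronil is an insecticide that blocks GABA-gated chloride channels of insects, and N27 is a single immortalised line derived from fetal rat midbrain and classed as dopaminergic. All 12 samples come from this line. The sources do not say whether control cells received a solvent, nor whether the samples of a group are separate cultures, so p-values measure the spread among the samples at hand, and that spread may be technical.

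Interferons bind receptors at the cell surface that activate JAK kinases, which phosphorylate STAT proteins. STAT complexes and interferon regulatory factors then switch on antiviral genes through 2 kinds of promoter element, the interferon-stimulated response element and the gamma-activated site. Among the induced genes are those that load peptides onto MHC class I molecules, which neurons express sparsely unless they are exposed to interferon.

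The 3 array slides nearly coincided with treatment, which bears on every comparison. Slide 3 held fipronil replicates 1 to 4 and no control, slide 2 held control replicates 5 to 8 and no fipronil array, and slide 1 held fipronil replicates 7 and 8 with control replicates 2 and 3. The slides were scanned at 3 separate times. The 75th percentile of the processed signal was 111 to 140 on the fipronil arrays of slide 3 and 245 to 246 on those of slide 1, against 269 to 279 on the control arrays of slide 1 and 379 to 472 on those of slide 2. Spots well above background made up 40.8% to 45.8% of those on fipronil arrays and 46.4% to 50% on control arrays. Levels are given throughout as log2 signal relative to the 75th percentile of the same array, and differences as fipronil minus control on that log2 scale. Of the labelled dopaminergic identity, Th, tyrosine hydroxylase, stood well above background on all 12 arrays, whereas Slc6a3, Ddc, Pitx3, Foxa2 and En1 did so on 0 arrays. Of the leukocyte markers, Ptprc, Aif1, Itgam and Csf1r were well above background on 0 arrays, and Cd68, Cx3cr1 and Cd14 on all 12.

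Promoter sequences are shown for the members that passed the threshold over all 12 arrays or whose slide 1 difference departed from that of the other slides, where a match to one of these elements was found, because these are the elements through which interferon signalling is known to act. RefSeq promoters of the rat assembly GRCr8, from 250 bases before to 50 bases after the annotated start, were searched on both strands for GAAA, any 2 bases and GAAA, as the response element, and for TTCNNNGAA, as the gamma-activated site. Promoter entries were matched for 32 of the 40 members. Jak1, Irf2, Usp18, Ddx58, Dhx58, Isg15, Mx2 and Ifit2 had none. The response element letters occurred in 16 of the 32 promoters (50%), against 3.92% of all 33469 promoters in the table, and the gamma-activated site letters in 7 (21.9%), against 8.87%. In Socs1, Oas1a, Bst2 and Parp14 both motifs were found, and in Bst2 they overlapped. Tapbp and Trim21, like Socs1, Oas1a and Bst2, held a pair of overlapping response element matches. A match is a description of these letters and not a site of binding. The promoters of Stat2, Ifngr2 and Ifi35 held neither motif within this window. Each line shows 60 bases upstream of the start, 5′ to 3′ in the direction of transcription, with the response element match in capitals for Irf7 (chr1:205800058-205800117, minus strand), B2m (chr3:129549155-129549214, plus strand), Tap2 (chr20:4652303-4652362, minus strand), Tapbp (chr20:4967878-4967937, minus strand), Trim21 (chr1:166399372-166399431, minus strand) and Gbp2 (chr2:234005667-234005726, plus strand), and the gamma-activated site match in capitals for Ifnar2 (chr11:44099520-44099579, plus strand) and Irf1 (chr10:38417767-38417826, plus strand).
Ifnar2: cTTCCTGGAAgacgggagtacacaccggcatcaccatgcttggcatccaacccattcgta
Irf1: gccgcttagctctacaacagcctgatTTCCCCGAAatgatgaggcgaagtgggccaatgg
Irf7: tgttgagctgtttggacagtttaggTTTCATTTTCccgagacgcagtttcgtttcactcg
B2m: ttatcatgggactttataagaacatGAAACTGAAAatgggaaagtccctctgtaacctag
Tap2: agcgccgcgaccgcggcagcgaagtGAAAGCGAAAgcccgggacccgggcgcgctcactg
Tapbp: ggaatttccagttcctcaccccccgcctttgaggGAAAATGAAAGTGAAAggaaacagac
Trim21: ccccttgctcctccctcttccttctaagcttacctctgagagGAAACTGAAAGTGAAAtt
Gbp2: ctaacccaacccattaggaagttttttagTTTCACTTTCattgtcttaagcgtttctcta

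Over all 12 arrays, 3 members were lower in fipronil-treated cells: the transcription factor gene Irf1 (1.71-fold lower), B2m, which encodes the light chain shared by MHC class I molecules (1.43-fold lower), and the ubiquitin ligase and antibody receptor gene Trim21 (at least 2.0-fold lower). Of these 3, Trim21 was bright enough to be tested through its control arrays alone, so its call is not independent of that filter. No member passed the threshold as higher in this fit, although Socs3 and Trim25 did with the mean of a gene's probes. The 3 calls among 37 tested members compare with 375 lower calls among 13542 genes, or 2.77%, and the 0 higher calls with 303 genes, or 2.24% (limma, Benjamini-Hochberg adjusted p under 0.05 over all genes). At an unadjusted p under 0.05, 7 members were lower, against 15.7% of all genes, and 2 were higher, against 9.37%. Of any size, 14 differences were positive and 23 negative, and the median difference was -0.09 over the members and -0.08 over all tested genes. In RNA from whole cultures, fewer cells carrying a transcript and less of it per cell cannot be told apart.

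Irf1 (chromosome 10), a factor induced by interferon that activates MHC class I genes, read 1.76 and 2.26 on the fipronil arrays of slide 1 and 1.68, 1.59, 1.29 and 1.63 on those of slide 3. Its control arrays read 2.21 and 2.08 on slide 1 and 2.85, 2.83, 2.52 and 2.36 on slide 2. Fipronil replicate 8 lay within the range of the controls, and the other 5 fipronil arrays lay below every control. The means were 1.70 ± 0.32 in fipronil-treated cells and 2.48 ± 0.32 in control cells (SD, n = 6 each), a difference of -0.77 ± 0.18 (SE, adjusted p 0.0299). Leaving out any of fipronil replicates 1 to 4 or control replicates 5 to 8 lost the call, with an adjusted p of at most 0.0720, so 4 of the 12 fits that omit 1 array kept the call.

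B2m (chromosome 3) read 1.69, 1.38, 1.26, 1.45, 1.56 and 1.19 on fipronil replicates 7, 8, 1, 2, 3 and 4. The control arrays read 1.97, 1.86, 1.74, 1.76, 2.02 and 2.27 for replicates 2, 3, 5, 6, 7 and 8. Every fipronil array lay below every control array, on slide 1 as well as across slides 3 and 2. The means were 1.42 ± 0.19 in fipronil-treated cells and 1.93 ± 0.20 in control cells (SD, n = 6 each), and the difference was -0.51 ± 0.13 (SE, adjusted p 0.0358). B2m kept its call in 3 of the 12 fits that omit 1 array and lost it, at an adjusted p of at most 0.0817, without fipronil replicate 1, 2, 3 or 4 or control replicate 2, 3, 6, 7 or 8.

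Trim21 (chromosome 1) is a ubiquitin ligase that binds antibody on incoming virus and restrains interferon regulatory factors. Its probe read -5.41 and -5.72 on the fipronil arrays of slide 1 and -4.46, -5.47, -5.72 and -4.77 on those of slide 3, and none of these was well above background. All 6 control arrays were well above background, at -3.81 and -3.48 on slide 1 and -4.23, -3.79, -3.40 and -3.11 on slide 2. The groups did not overlap on either pair of slides. The measured means were -5.26 ± 0.52 in fipronil-treated cells and -3.64 ± 0.39 in control cells (SD, n = 6 each), with a fitted difference of -1.62 ± 0.24 (SE, adjusted p 0.00834). The fold of at least 2.0 was computed against the lowest signal that counted as well above background on each fipronil array, and for slide 1 alone it was at least 2.61-fold lower. Trim21 passed in all 12 fits that omit 1 array, and reversed to a difference of 0.42 when a normexp background was combined with 75th percentile scaling (adjusted p 0.0355), under which the median of all genes was 0.17. Its probe met the filter of at least 6 arrays through the control arrays alone, so its call and its lack of overlap are not independent of that filter. With probes required on all 12 arrays Trim21 was not tested, and the members that passed were Irf1, B2m and Parp14. A second Trim21 probe, well above background on 1 control array alone, differed by 0.77. B2m and Trim21 were the 2 members whose fipronil and control arrays did not overlap with fipronil lower, against 2.55% of all tested genes.

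Within slide 1, which a fixed slide block also returns, the differences were -0.13 ± 0.23 for Irf1 (SE, adjusted p 0.789), -0.38 ± 0.21 for B2m (SE, adjusted p 0.353) and -1.92 ± 0.43 for Trim21 (SE, adjusted p 0.0972). With slide as a random block Trim21 passed (adjusted p 0.0453), and Irf1 and B2m did not (adjusted p 0.218 and 0.179).

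**Figure D1:**
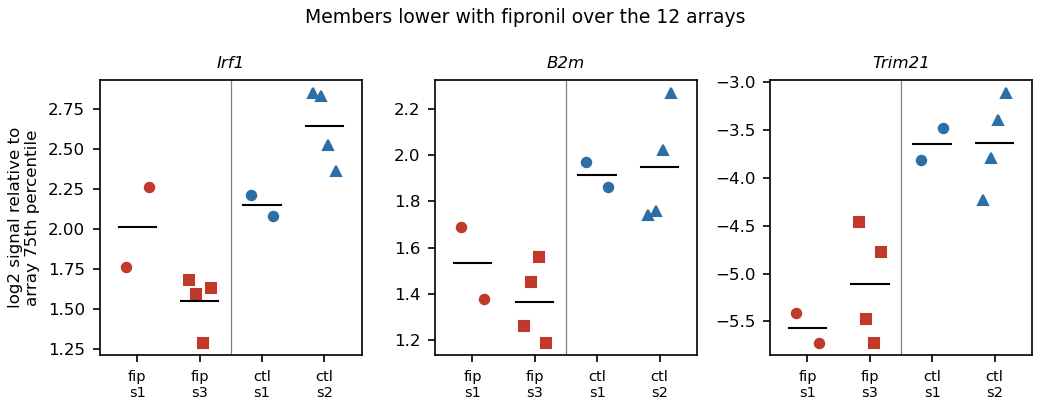
Log2 signal relative to the array 75th percentile (y axis) of Irf1, B2m and Trim21 on each array, with fipronil in red left of control in blue, split by slide (s1, s2, s3) along the x axis, and black bars at the mean of each set. Every fipronil point of B2m and Trim21 lies below every control point, and 1 fipronil array of slide 1 lies among the controls for Irf1.

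Slide 1, the one slide with both treatments, was compared apart. There, 27 of the 37 members were higher in fipronil-treated cells and 10 were lower, whereas 48.4% of all tested genes were higher there. The median difference on slide 1 was 0.26 over the members and -0.02 over all genes. No member passed the threshold on slide 1, where 2 arrays stood against 2, as against 12 genes or 0.0886% of all genes (limma). The lowest adjusted p among members was that of Trim21, 0.0972, and 9 members had an unadjusted p under 0.05, against 19.0% of all genes, 8 of them higher, against 8.58%. Both fipronil arrays lay above both control arrays for 16 members, against 25.2% of all genes, and below both for 4 members, against 28.5%.

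Between slide 3 fipronil and slide 2 control arrays, where slide and treatment cannot be told apart, 27 of the 37 members were lower, against 58.51% of all genes. Here 14 members passed the threshold as lower, against 14.6% of all genes. Isg15, Isg20, Parp14 and, by the brighter of its 2 probes, Tap1 were among them. As higher 2 members passed, Socs3 and, by the brighter of its 2 probes, Irf3, against 9.80%. The median difference was -0.27 over the members and -0.10 over all genes. In all, 22 members (59.5%) were higher on slide 1 and lower between slides 3 and 2, a combination shown by 31.55% of all genes.

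**Figure D2:**
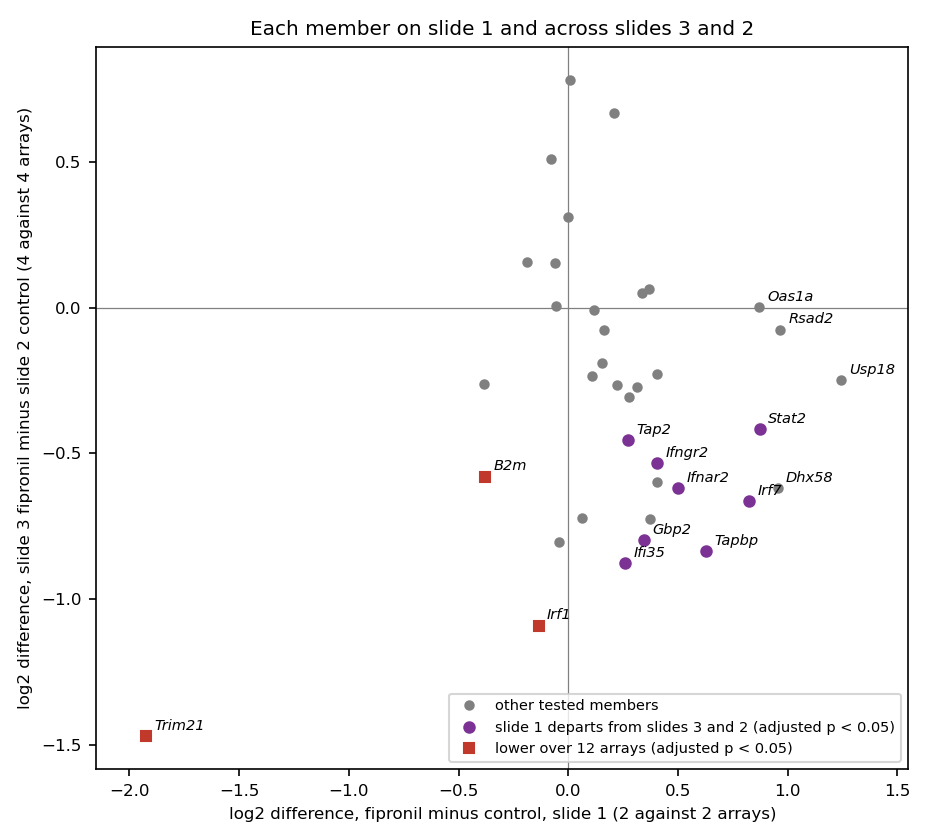
Log2 difference of each of the 37 tested members on slide 1 (x axis, 2 fipronil against 2 control arrays) and between slide 3 fipronil and slide 2 control arrays (y axis, 4 against 4). Of the points, 22 lie to the right of 0 and below 0, among them the 8 in purple, while Trim21, B2m and Irf1, red squares, lie below 0 on both axes.

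The next contrast was chosen with earlier results of these data known. The departure of slide 1 from the other slides was tested, as the slide 1 difference minus the difference between slides 3 and 2. It passed the threshold for 8 members, all with the larger value on slide 1, against 5.0% of all genes, and for 0 members in the other direction, against 4.14%, with 18 members at an unadjusted p under 0.05 in either direction, against 32.6%. The 8 are the receptor subunit genes Ifnar2 and Ifngr2, the transcription factor genes Stat2 and Irf7, the peptide loading genes Tap2 and Tapbp, and the effector genes Gbp2 and Ifi35. None of the 8 passed without fipronil replicate 8, nor without control replicate 2, when 0.111% and 0.613% of all genes passed. The count was 3 without control replicate 3 (1.85% of all genes), 4 without fipronil replicate 1 or control replicate 5, 6 or 7 (2.27% to 3.96%), and 5 without fipronil replicate 2 (4.5%). The signal level and the share of spots above background also differed between slides, and their part in these departures was not tested.

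For 6 members, Ifnar2, Tap2, Tapbp, Gbp2, Ifi35 and the exonuclease gene Isg20, every fipronil array of slide 1 and every control array of slide 2 lay above every control array of slide 1 and every fipronil array of slide 3. This order held for 3.05% of all genes. The median deviation of the members from their own 12-array means was 0.01 and 0.17 on fipronil replicates 7 and 8, and -0.25, -0.23, -0.07 and -0.07 on fipronil replicates 1 to 4. On control arrays it was -0.21 and -0.07 for replicates 2 and 3, and 0.12, 0.15, 0.11 and 0.27 for replicates 5 to 8. Of the 37 members, 20 and 23 lay above their own mean on fipronil replicates 7 and 8 and 8 to 15 on the slide 3 fipronil arrays, against 8 and 12 on the slide 1 control arrays and 24 to 32 on the slide 2 control arrays. The medians over all genes stayed between -0.06 and 0.08 on the 12 arrays.

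**Figure D3:**
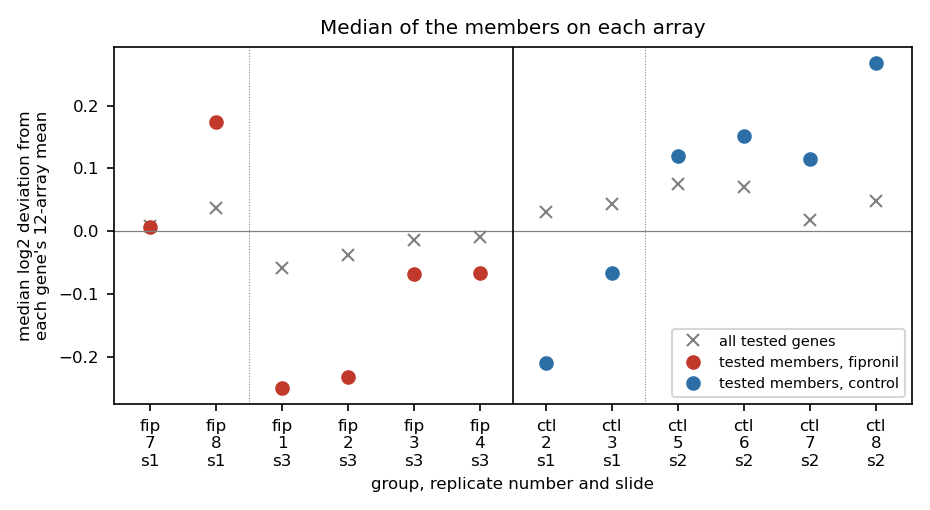
Median log2 deviation from each gene's 12-array mean (y axis) on each array (x axis, named by group, replicate and slide), for the tested members (circles, fipronil red and control blue) and for all tested genes (crosses). The members reach -0.25 on a slide 3 fipronil array and 0.27 on a slide 2 control array, and on slide 1 both fipronil circles lie above both control circles.

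Among the receptors, 4 of 4 members were higher with fipronil on slide 1 and 4 of 4 were lower between slides 3 and 2, and none passed over 12 arrays. Ifnar2 (chromosome 11), the signalling subunit of the type I interferon receptor, read -0.13 and -0.20 on slide 1 fipronil arrays and -0.79, -0.87, -0.66 and -1.07 on slide 3 fipronil arrays. Its control arrays read -0.60 and -0.74 on slide 1 and -0.25, -0.16, -0.38 and -0.12 on slide 2. Fipronil was above control on slide 1 and below it across the other slides, without overlap in either. The differences were 0.50 ± 0.17 and -0.62, which differed by 1.12 ± 0.21 (SE, adjusted p 0.0177).

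Ifngr2 (chromosome 11), the signalling chain of the interferon gamma receptor, read 0.32 and 0.23 on slide 1 fipronil arrays and -0.40, -0.56, -0.07 and -0.37 on slide 3 fipronil arrays. Control arrays read -0.36 and 0.10 on slide 1 and 0.06, 0.16, 0.21 and 0.31 on slide 2. Control replicate 2 stood apart from the other controls. The slide 1 difference of 0.40 and that of -0.53 between slides 3 and 2 differed by 0.94 ± 0.25 (SE, adjusted p 0.0409). Ifngr1, the ligand-binding chain, differed by 0.16 on slide 1 and -0.08 between slides 3 and 2 and did not pass. Ifnar1, the partner of Ifnar2, was well above background on 1 fipronil and 5 control arrays and differed by -0.02 over the 12 arrays.

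Of the kinases and STAT factors, Jak1 and Jak2, which couple the receptors to STAT proteins, and Stat3 did not pass in any comparison by their brightest probes. Jak1 (chromosome 5), among the 6 members with the highest signal, read 2.52 and 2.60 on slide 1 and 2.68, 2.69, 2.64 and 2.81 on slide 3 fipronil arrays. Its control arrays read 2.72 and 2.52 on slide 1 and 2.51, 2.52, 2.57 and 2.60 on slide 2. The groups overlapped, with a difference of 0.08 ± 0.09 (SE, adjusted p 0.607). Jak2 and Stat3 differed by 0.17 and -0.12.

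Stat2 (chromosome 7), which works with IRF9 in the complex that binds the response element, read 2.35 and 2.44 on slide 1 and 1.33, 1.40, 2.16 and 1.76 on slide 3 fipronil arrays. Control arrays read 1.38 and 1.66 on slide 1 and 2.14, 2.14, 2.01 and 2.03 on slide 2. The spread among slide 3 fipronil arrays was wider than among slide 2 controls, and slide 1 fipronil arrays were the highest of all 12. The slide 1 difference was 0.87 ± 0.25 (SE, adjusted p 0.128), the difference between slides 3 and 2 was -0.42, and the 2 differed by 1.29 ± 0.30 (SE, adjusted p 0.0305). Over 12 arrays these nearly cancelled, at 0.01 ± 0.22 (SE).

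By the brightest probe of each, the 5 interferon regulatory factors differed in direction between slides 3 and 2. Irf7 (chromosome 1), which amplifies type I interferon production, read 0.40 and 0.80 on slide 1 and -0.14, 0.15, 0.37 and 0.45 on slide 3 fipronil arrays. Its controls read -0.41 and -0.05 on slide 1 and 0.69, 0.79, 1.03 and 0.97 on slide 2. The slide 1 difference of 0.82 ± 0.23 (SE, adjusted p 0.128) and that of -0.66 between slides 3 and 2 differed by 1.49 ± 0.29 (SE, adjusted p 0.0185). Slide 1 controls were the lowest controls and slide 2 controls the highest, while slide 1 fipronil arrays overlapped with slide 3 fipronil arrays.

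Irf3 (chromosome 1), the factor activated directly by nucleic acid sensors, read 2.03 and 1.84 on slide 1 and 2.56, 2.54, 2.48 and 2.57 on slide 3 fipronil arrays. Controls read 2.08 and 1.94 on slide 1 and 1.98, 2.16, 1.96 and 2.0 on slide 2. The slide 3 arrays stood above all others, giving 0.51 between slides 3 and 2 (adjusted p 0.00625) and -0.08 on slide 1, and 0.32 ± 0.14 over 12 arrays (SE, adjusted p 0.186). A second Irf3 probe, well above background on all 12 arrays but dimmer, went the other way between slides 3 and 2, at -0.31, so the direction for Irf3 depends on the probe. Irf9, the DNA-binding part of the STAT complex, differed by -0.10, and Irf2, a repressor of Irf1 targets, by 0.21, and neither passed. A second, dimmer Irf9 probe was well above background on 4 fipronil and 6 control arrays. It differed by -0.67 over 12 arrays and by -0.97 between slides 3 and 2. For Irf1 the slide 1 difference of -0.13 and the difference of -1.09 between slides 3 and 2 differed by 0.96 ± 0.28 (SE, adjusted p 0.0543).

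**Figure D4:**
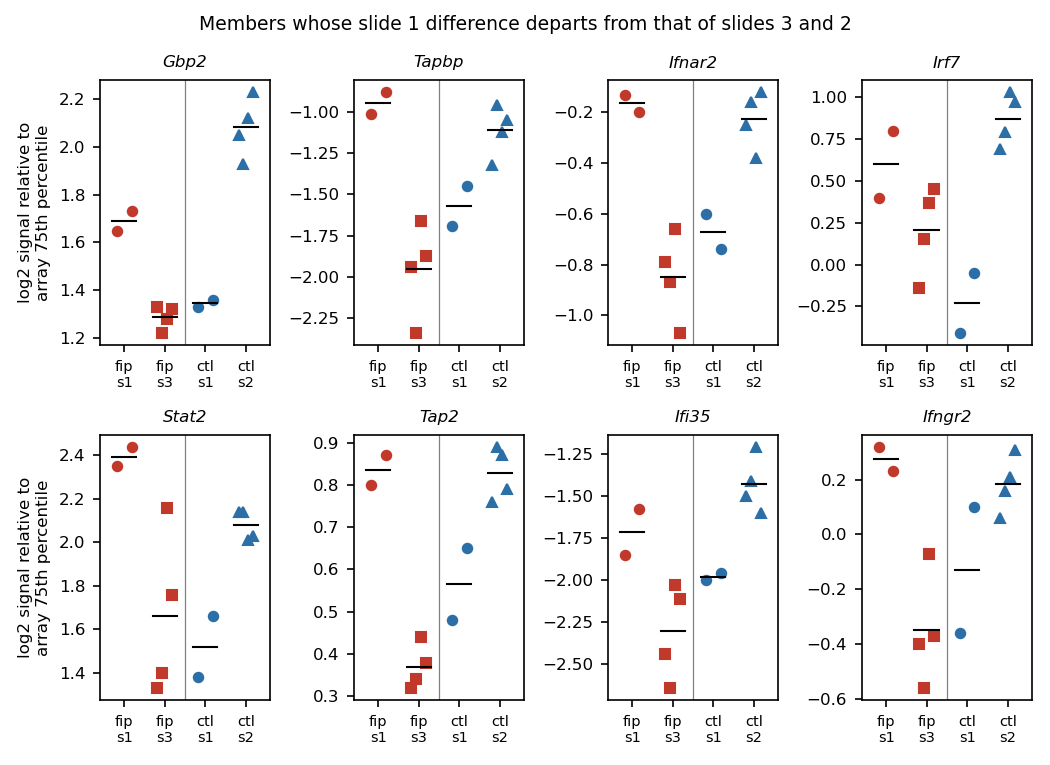
Log2 signal relative to the array 75th percentile (y axis) of the 8 members whose slide 1 difference departed from that of slides 3 and 2, with fipronil (red) left of control (blue) by slide (s1, s2, s3), and black bars at the mean of each set. In each panel fipronil lies above control on slide 1 and the order of the means is turned between slides 3 and 2.

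Among the inhibitors of signalling, Socs3 (chromosome 10), which blocks JAK kinases, read 2.36 and 2.60 on slide 1 and 2.87, 2.76, 3.16 and 3.37 on slide 3 fipronil arrays. Controls read 2.01 and 2.53 on slide 1 and 2.38, 2.55, 2.3 and 2.26 on slide 2. The 4 slide 3 arrays and fipronil replicate 8 lay above every control, and replicate 7 lay among them. The difference over 12 arrays was 0.52 ± 0.17 (SE, adjusted p 0.0848), with 0.21 on slide 1. A second Socs3 probe, well above background on all 12 arrays, differed by 0.61 over 12 arrays and by 0.49 on slide 1. With the mean of its probes Socs3 passed as higher over 12 arrays (0.56, adjusted p 0.0345). Usp18, which removes ISG15 from proteins and blocks the type I receptor, had the highest slide 1 difference of the members, 1.24 ± 0.38 (SE, adjusted p 0.14), and a difference of -0.25 between slides 3 and 2. Socs1 was well above background on 0 arrays and was not tested.

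By the brightest probe of each, all 4 antigen presentation members were lower over 12 arrays, with B2m past the threshold. The median difference of all genes over 12 arrays was -0.08. On slide 1, 3 of the 4 members were higher, with B2m the exception at -0.38. Tap2 (chromosome 20), a subunit of the transporter that moves peptides into the endoplasmic reticulum, read 0.80 and 0.87 on slide 1 and 0.32, 0.34, 0.44 and 0.38 on slide 3 fipronil arrays. Controls read 0.48 and 0.65 on slide 1 and 0.76, 0.89, 0.87 and 0.79 on slide 2. The slide 1 fipronil and slide 2 control arrays lay together above all the others. The difference between slide 1 and slides 3 and 2 was 0.72 ± 0.17 (SE, adjusted p 0.0318).

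Tapbp (chromosome 20), or tapasin, which bridges that transporter to MHC class I, read -1.01 and -0.88 on slide 1 and -1.94, -2.34, -1.66 and -1.87 on slide 3 fipronil arrays. Controls read -1.69 and -1.45 on slide 1 and -1.32, -0.96, -1.12 and -1.05 on slide 2. Its slide 1 difference of 0.63 ± 0.22 (SE, adjusted p 0.168) and its difference of -0.84 between slides 3 and 2 differed by 1.47 ± 0.27 (SE, adjusted p 0.0164). Tap1, the partner of Tap2, had 0.37 on slide 1 and -0.73 between slides 3 and 2, and the 2 differed by 1.10 ± 0.31 (SE, adjusted p 0.0501). A second, dimmer Tap1 probe, well above background on 2 fipronil and 6 control arrays, had 0.15 on slide 1 and 0.13 between slides 3 and 2.

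Of the sensors, Ddx58 (RIG-I), Dhx58 (its regulator LGP2) and Ifih1 (MDA5), which detect viral RNA, did not pass in any comparison, nor did the ubiquitin ligase gene Trim25, which activates RIG-I. Dhx58 differed by 0.95 ± 0.39 on slide 1 (SE, adjusted p 0.227) and by -0.62 between slides 3 and 2, and was well above background on 5 fipronil and 6 control arrays. Ifih1 was well above background on 3 fipronil and 5 control arrays and did not pass over the 12 arrays (adjusted p 0.272). Trim25 differed by 0.14 and Ddx58 by -0.11. With the mean of its probes in place of the brightest, Trim25 passed as higher over the 12 arrays.

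None of the 13 tested effector genes passed over 12 arrays, and 9 were higher on slide 1 and 10 lower between slides 3 and 2. Gbp2 (chromosome 2), a GTPase that attacks intracellular pathogens, read 1.65 and 1.73 on slide 1 and 1.33, 1.22, 1.28 and 1.32 on slide 3 fipronil arrays. Controls read 1.33 and 1.36 on slide 1 and 2.05, 1.93, 2.12 and 2.23 on slide 2. Slide 2 controls were the highest of all. The slide 1 difference of 0.35 and that of -0.80 between slides 3 and 2 differed by 1.14 ± 0.18 (SE, adjusted p 0.0121), the lowest adjusted p of the 8 members.

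Ifi35 (chromosome 10), an interferon-induced regulator of innate signalling, read -1.85 and -1.58 on slide 1 and -2.44, -2.64, -2.03 and -2.11 on slide 3 fipronil arrays. Controls read -2.0 and -1.96 on slide 1 and -1.5, -1.41, -1.21 and -1.60 on slide 2. The differences of 0.26 and -0.88 differed by 1.14 ± 0.27 (SE, adjusted p 0.0321). Isg20, an exonuclease that degrades viral RNA, had differences of 0.40 and -0.60, a departure of 1.0 ± 0.30 (SE, adjusted p 0.0587).

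The effectors with the highest signal were not called over 12 arrays. Isg15, the ubiquitin-like modifier, read 2.92 and 3.15 on slide 1 and 2.76, 2.61, 2.72 and 2.16 on slide 3 fipronil arrays. Controls read 2.81 and 3.14 on slide 1 and 3.03, 3.03, 3.58 and 3.5 on slide 2. On slide 1 the 2 groups interleaved (difference 0.06), and over 12 arrays the difference was -0.46 ± 0.18 (SE, adjusted p 0.13).

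Mx2, a dynamin-like antiviral GTPase, read 3.24 and 2.88 on slide 1 and 3.23, 3.13, 3.03 and 2.67 on slide 3 fipronil arrays, and controls read 3.05 and 3.18 on slide 1 and 2.82, 2.81, 3.07 and 3.32 on slide 2. The groups overlapped throughout, with a difference of -0.01. Rsad2 (viperin), which blocks viral replication, read 2.62 and 2.43 on slide 1 and 1.97, 2.02, 2.90 and 2.16 on slide 3 fipronil arrays. Its controls read 1.29 and 1.84 on slide 1 and 2.45, 2.53, 2.08 and 2.29 on slide 2. Rsad2 was higher in both fipronil arrays of slide 1 (0.97 ± 0.31 SE, adjusted p 0.147) and differed by -0.07 between slides 3 and 2.

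The other effectors gave smaller or mixed values. Parp14, an ADP-ribosyltransferase, had the most negative difference among members that did not pass over 12 arrays, -0.55 ± 0.16 (SE, adjusted p 0.0639), with -0.04 on slide 1. Mx1 and Parp9 were the effectors whose 2 slide 1 fipronil arrays lay below both controls, with differences of -0.38 and -0.19. Oas1a, which makes the activator of RNase L, differed by 0.87 on slide 1 and by 0.29 over the 12 arrays. Bst2 (tetherin), Ifit3 and Oasl differed over 12 arrays by -0.07, 0.03 and -0.08. Ifit2 was well above background on 1 control array and was not tested, and no probe carried the symbol of Xaf1.

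**Figure D5:**
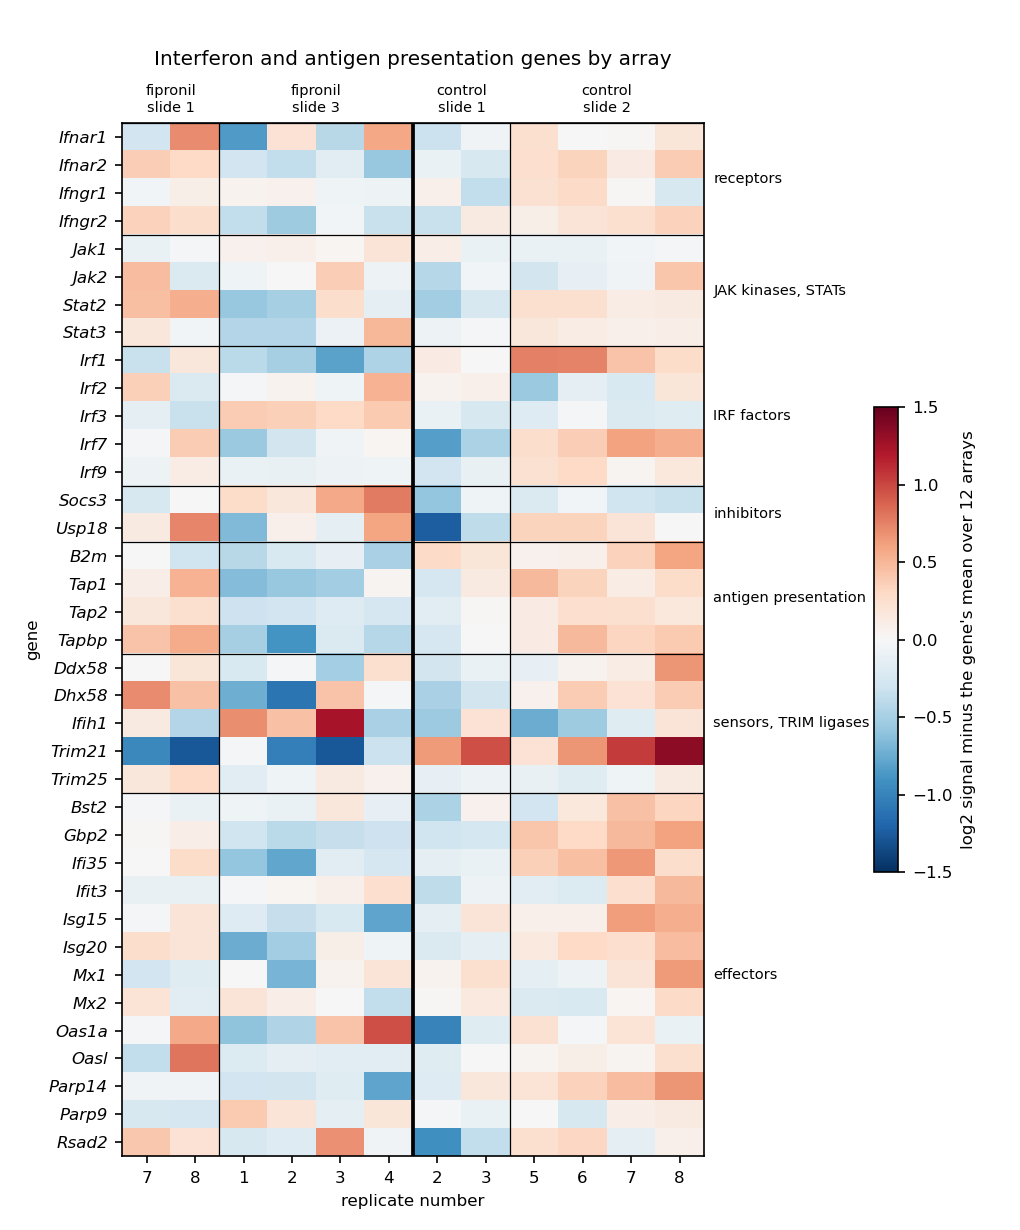
Heat map of the 37 tested members (rows, grouped by role) on the 12 arrays (columns, fipronil left of control, split by slide), coloured by log2 signal minus the gene's 12-array mean. Trim21 is blue on 5 of 6 fipronil arrays and red on control arrays, while Gbp2, Tap2 and Tapbp are blue on slide 3 fipronil and red on slide 2 control arrays.

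The 8 members with a departure were also counted by the response element letters in their promoters. Of the 30 tested members with a promoter entry, 14 held the response element letters and 4 of these were among the 8, while 16 did not and 4 of these were. The median difference of the 14 was 0.31 on slide 1 and -0.59 between slides 3 and 2, and that of the 16 was 0.24 and -0.25. These are descriptions and were not tested.

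Other genes of the pathway were read from the same fits. Over 12 arrays 2.24% of all genes were called higher and 2.77% lower. Of 18 tested signalling genes, 3 were higher over 12 arrays and 0 lower. Irf2bp2, a co-repressor, differed by 0.62 ± 0.11 (SE, adjusted p 0.0153), Stat6, which serves interleukin signalling, by 1.03 ± 0.23 (SE, adjusted p 0.0284), and the interferon lambda receptor gene Ifnlr1 by 0.52 ± 0.13 (SE, adjusted p 0.0434). Of 14 tested sensing genes, 2 were lower and 0 higher, the exonuclease gene Trex1 (-0.59) and the adaptor gene Myd88 (-0.56), with -0.54 and -0.36 on slide 1. The slide 1 departure passed as larger on slide 1 for 3 signalling genes and in the other direction for 1, and for 1 sensing gene and 0. The shares of all genes were 5.0% and 4.14%. The list medians on slide 1 and between slides 3 and 2 were 0.25 and -0.13 for signalling genes, and -0.25 and -0.25 for sensing genes.

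Of 39 other effector genes, 2 were lower, Gbp1 (-1.12) and Dtx3l (-0.44), against 2.77% of all genes. In the other direction 1 was higher, Helz2 (0.54), against 2.24%. The list median was -0.24 over 12 arrays, 0.24 on slide 1 and -0.44 between slides 3 and 2. The slide 1 departure passed with the larger value on slide 1 for 10 of the 39, against 5.0% of all genes. It passed in the other direction for 2, against 4.14%. Of 28 other antigen presentation genes, 0 passed over 12 arrays. The 2 with the highest signal, the MHC class I genes RT1-CE1 and RT1-A1, differed by -0.18 and 0.18. The slide 1 departure passed with the larger value on slide 1 for 6 of the 28, against 5.0% of all genes, and in the other direction for 0, against 4.14%. The 6 were the immunoproteasome subunit gene Psmb9 (1.25), the proteasome activator gene Psme2 (0.83), the MHC class II regulator gene Rfxank (1.34), and RT1-CE5, RT1-Db1 and RT1-DMb (1.49, 1.22 and 1.76). The median of the 28 was 0.27 on slide 1 and -0.26 between slides 3 and 2.

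Of the interferon genes themselves, 7 had a probe and none was tested. Ifng, Ifna2, Ifna5, Ifna11 and Ifnk were well above background on 0 arrays, Ifnb1 on 1 control array, and Ifna4 on 1 fipronil and 4 control arrays. Markers of other cell types gave values beside these results. Over the 3 of 12 leukocyte markers that were tested, the summed level relative to the array 75th percentile was 1.13 to 1.39 on fipronil arrays and 1.18 to 1.36 on control arrays, and the slide 1 departures were 1.12 for Cd14 (adjusted p 0.0245), -0.75 for Cx3cr1 (adjusted p 0.0837) and -0.13 for Cd68 (adjusted p 0.747). Of 6 fibroblast markers 1 was tested, Col1a1, at a level of 0.211 to 0.469 on fipronil arrays and 0.105 to 0.216 on control arrays. Col1a1 was higher over 12 arrays by 0.98 (adjusted p 0.0375), with 0.09 on slide 1 and 1.42 between slides 3 and 2, a departure of -1.34 (adjusted p 0.0369). Their part in the values of the members was not tested.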

How the data were processed

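Transcripts were measured on 12 Agilent one-colour arrays of N27 cells, 6 fipronil and 6 control, grouped by title and treatment label. The members, lists and tests were chosen with earlier results of these data known. The authors quantified the spots in Agilent Feature Extraction (10.7, from the submitters' processing notes). The deposited processed signal is an intensity from which background and spatial trend had been removed, without scaling between arrays, and the deposited mean and background signals are raw intensity (per the file headers). Flags, which are other values of 0 or 1 in the deposited files, mark spots well above background and outliers. The deposited series table holds log2 values that were quantile-normalized by the authors, per its titles, with a floor of 1.5 and column medians of 3.04 to 3.05, and it served as an alternative.

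Processed signals were converted to log2 and the 75th percentile of each array's non-control spots was subtracted. Outlier spots (323 to 711 per array) were left out, 0 spots were saturated, and spots of a probe were averaged. A probe was kept when well above background on at least 6 arrays, and the brightest probe stood for a gene, giving 16291 probes and 13542 genes. Probe coordinates are not printed, because the array files use an older assembly.

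Differences were tested with limma 3.58.1 (lmFit, eBayes, two-sided, Benjamini-Hochberg over all genes, threshold 0.05) in R 4.3.3 (package data.table, version 1.17.8), over 12 arrays and with means for each treatment and slide. The script was tested on simulated data. The number of arrays limits the precision. Per-array values are given for members past the threshold over 12 arrays, on slide 1 or in the slide 1 departure, and for the 6 with the highest signal. Of each related list, up to 4 genes past the threshold, or the 2 with the highest signal, are named, and for the slide 1 departure of the antigen presentation list all 6 are, chosen after their values were seen. The related lists were signalling, sensing, effector, presentation and interferon genes. The value of 1 signalling gene is not reported here. Marker lists covered dopaminergic, leukocyte, fibroblast, astrocyte and endothelial genes, of which 1, 3, 1, 0 and 1 were tested, and Vwf, the endothelial one, differed by -0.04. Alternatives were other scalings, backgrounds, filters and probe rules, slide and replicate blocks, and leaving out each array.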

Additional observations from a re-analysis of the deposited data

Results flagged for a closer look

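In 5 of 74 sets of 6 arrays (37 members, 2 groups), the highest or lowest array stood apart from the rest of its group by a larger share of the range than Dixon's critical value allows. Chance marks about 1 in 20 sets. For Ifngr2, control replicate 2 read -0.36 against 0.06 to 0.31 on the other control arrays. For Oas1a, the same array read -1.88 against -1.06 to -0.64. For Irf9, fipronil replicate 8 read -0.18 against -0.40 to -0.36 on the other fipronil arrays, and for Oasl it read -1.35 against -2.52 to -2.29. For Parp14, fipronil replicate 4 read 0.18 against 0.69 to 0.92.

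The slide 1 difference departed from that between slides 3 and 2, where slide and treatment cannot be told apart, for 8 members. This was by a test of the difference itself, a contrast chosen with earlier results of these data known. In the same direction 5.0% of all genes passed. None of the 8 passed without fipronil replicate 8, nor without control replicate 2. The departures were 1.12 for Ifnar2, 0.94 for Ifngr2, 1.29 for Stat2, 1.49 for Irf7, 0.72 for Tap2, 1.47 for Tapbp, 1.14 for Gbp2 and 1.14 for Ifi35 on the log2 scale, all higher on slide 1.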

How the results depend on the processing

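Over 12 arrays 678 genes and 3 members passed (303 higher and 375 lower genes). With normexp background before 75th percentile scaling 6774 genes (5113 higher, 1661 lower) and 14 members passed, and the median of all genes was 0.17, against -0.08. With no filter on dim probes 16313 genes (15088 higher, 1225 lower) and 5 members passed. With the mean of a gene's probes 5 members passed, Irf1, B2m and Trim21 as lower and Socs3 and Trim25 as higher. Median scaling put the median of all genes at -0.18 and split the calls 150 higher and 435 lower. Slide as a fixed block left 12 genes and 0 members (9 at an unadjusted p under 0.05), and slide as a random block 21 genes and 1 member, Trim21. Replicate numbers 2, 3, 7 and 8 occur in both groups, and same-numbered arrays, which lie on different slides, correlated in their deviations at 0.43, 0.08, -0.11 and -0.31. They share only a number, and a fit with a replicate block called 0 genes and 0 members, with 2164 genes and 8 members at an unadjusted p under 0.05. Leaving out 1 array gave 228 to 2022 genes and 1 to 7 members, the highest values without fipronil replicate 8, and Trim21 alone without any of fipronil replicates 1 to 4 or control replicates 6 to 8.

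On slide 1, 0 members passed in every fit that omits 1 array and 1 with normexp before 75th percentile scaling. The slide 1 departure passed for 8 members and 9.14% of all genes. It passed for 15 members and 14.4% of genes with median scaling, 18 and 51.6% with normexp before 75th percentile scaling, 13 and 16.1% with probes above background on all 12 arrays and 14 and 38.8% with no filter. When 1 array was left out it passed for 0 to 12 members and 0.111% to 18.7% of genes. With normexp before 75th percentile scaling, differences over 12 arrays turned to 0.40 for Dhx58, 0.70 for Ifnar1, 0.29 for Isg20, 0.42 for Oasl and 0.42 for Trim21, and the departure of Ifnar1 to -0.77. The B2m call was lost with quantile normalization (adjusted p 0.0561) and with the authors' deposited table (0.0560). The causes were not tested. With 2 arrays a group on slide 1, and with Trim21 below background in fipronil arrays, small differences could not be measured.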

Other observations

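For 13 members a second probe was present. The second probes of Irf3 and Oas1a, well above background on 6 and 5 fipronil arrays and on all 6 control arrays, differed over 12 arrays by -0.24 and -0.48, against 0.32 and 0.29 for the brighter probes. The second probe of Irf9 differed by -0.67 against -0.10, that of Trim25 by 0.83 against 0.14, and that of Tap2 by -0.20 against -0.21. A probe whose description, but not its symbol, names XIAP associated factor 1 was well above background on 0 arrays.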
